A study of Mus musculus with 6 samples.

Results

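The replication-dependent histone genes of the mouse encode the linker histone H1 and the core histones H2A, H2B, H3 and H4 that package newly copied DNA. They were chosen by name, with older names opening in Hist1h to Hist4h and newer names opening in H1f1 to H1f6, H2ac, H2bc, H3c and H4c, and by a mean rlog value of 3 or more across the 6 libraries. After 1 pseudogene name was left out, 66 genes carried such names and 58 of them passed the minimum, out of 55487 genes in the table. The 58 genes comprised 6 of H1, 15 of H2A, 14 of H2B, 11 of H3 and 12 of H4. The 8 genes under the minimum were H2ac1, H2ac18, Hist1h2ao, Hist1h2ap, H2bc1, Hist1h2bq, Hist1h2br and H3c14, the last listed at 0 in every library. The rule itself uses names and the mean over all libraries, so a gene could pass the minimum through either group, and the class was chosen with earlier results of these data known.

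Bulk RNA of mouse bone marrow cells selected for cKit, the receptor for stem cell factor, was compared between 3 libraries of cells given wild type MLLT3 (WT) and 3 libraries of cells given MLLT3 K63E K67E (DM), both from an overexpressing lentivirus. MLLT3 is a chromatin reader of transcription elongation complexes, and both substitutions are named in the labels as one mutant. Cells of both groups were sorted, then grown in methylcellulose for 8 days in the presence of 10 ng/mL Flt3L, of other cytokines at 20 ng/mL each, among them EPO, SCF, GM-CSF, IL-3, IL-6 and IL-11, and of gentamycin and 4-hydroxytamoxifen at 200 nM, which in both groups was added to delete the endogenous Mllt3 gene. The mouse strain, the allele and the Cre driver behind that deletion are not given in the labels, nor is the age of the animals. The labels place all 6 libraries in batch 1 and do not say whether replicates came from separate animals or cultures, so that p-values measure the spread between these libraries, which may be technical.

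Histone mRNAs of this class are made in bulk during S phase, when DNA is copied, and are destroyed when it ends. They lack a poly(A) tail and end in a conserved stem-loop, which is bound by the protein SLBP and trimmed with the help of the U7 small nuclear ribonucleoprotein. The libraries were made from total RNA with depletion of abundant transcripts, and the extraction protocol names no selection for poly(A). Replacement histones, in contrast, mostly come from scattered genes with ordinary polyadenylated mRNAs, and most are not confined to S phase. The contrast is not strict, since the mRNA of H2ax, described below, is known in a stem-loop form too.

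The stem-loop is shown first because it is the mark that sets these mRNAs apart from others. It was searched as a stem of 6 bases opening with GG, a loop of 4 bases opening with TT, and the pairing stem, within 100 bases after the stop codon in GENCODE M21 models on GRCm38. Of the 42 members with a 3′ UTR model of at least 40 bases, 37 held one, at 21 to 58 bases after the stop codon (median 31), while 0.249% of 20890 coding genes with such a window did. The other 16 members had a shorter model or none, so that nothing was read there. Capitals mark the stem, and the sequences read 5′ to 3′ as DNA.
H1f2, and 19 others of H1, H2A, H2B and H3: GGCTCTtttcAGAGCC
H2bc12, and 5 others of H1, H2B and H3: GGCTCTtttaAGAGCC
H2ac20: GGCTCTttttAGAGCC
H4c6, and 5 others of H4: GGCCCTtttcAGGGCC
H4c9, and 1 other of H4: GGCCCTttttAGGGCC
H4c11, and 1 other of H4: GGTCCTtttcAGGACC
The forms with a stem opening in GGCTCT held no H4 gene, and the forms opening in GGCCCT and GGTCCT held H4 genes alone.

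Promoter stretches are shown for 4 genes that the results turn on: H2bc14, with the largest change of all members, H1f1, with the largest of H1, and H2ac6 and H2ac20, each of which shares its promoter region with an H2B gene that did not pass the test. RefSeq promoters (GRCm38.p6) matched 46 of the 58 members. Each stretch holds the 150 bases before the RefSeq start of the gene, 5′ to 3′ on its own strand. Capitals mark 3 motifs, searched on both strands, with matches of different motifs allowed to overlap. The TATA box was searched as TATAA, the CCAAT box by the letters of its name, and the octamer, to which OCT factors bind, as ATTTGCAT. Read from the other strand, the octamer appears as ATGCAAAT.
H2bc14, chr13:21721894-21722043, plus strand: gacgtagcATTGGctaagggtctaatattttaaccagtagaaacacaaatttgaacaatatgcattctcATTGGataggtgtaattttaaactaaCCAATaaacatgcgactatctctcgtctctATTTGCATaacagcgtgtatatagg
H1f1, chr13:23763518-23763667, plus strand: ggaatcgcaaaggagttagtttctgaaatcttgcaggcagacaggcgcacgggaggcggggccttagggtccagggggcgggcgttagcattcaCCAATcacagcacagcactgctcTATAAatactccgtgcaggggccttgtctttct
H2ac6, chr13:23683960-23684109, minus strand: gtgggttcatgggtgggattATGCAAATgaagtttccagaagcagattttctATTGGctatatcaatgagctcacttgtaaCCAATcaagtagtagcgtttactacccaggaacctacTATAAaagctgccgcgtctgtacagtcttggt
H2ac20, chr3:96220881-96221030, minus strand: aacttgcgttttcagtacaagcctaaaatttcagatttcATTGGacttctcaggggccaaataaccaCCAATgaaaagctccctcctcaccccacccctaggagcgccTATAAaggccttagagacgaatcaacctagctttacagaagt
Within 250 bases before the start, CCAAT was found in 84.8% of the 46 members against 33.8% of all 32851 promoters in the table, TATAA in 58.7% against 22.8%, and the octamer in 21.7% against 1.6%. CCAAT was present in every matched promoter of H1, H2A and H2B but in 33.3% of those of H4. The octamer was found in 5 promoters of H2A and 5 of H2B and in none of H1, H3 or H4. Where 2 members start close together on opposite strands, the bases searched overlap, and 1 site can be counted for both genes. H2ac8 and H2bc8, with starts 175 bases apart, share their octamer in this way. The 46 promoters are therefore not all separate stretches, and the shares above count such sites more than once. Members with and without these letters changed by similar medians: -0.59 with the octamer (10 members) and -0.54 without it (36), -0.53 with TATAA (27) and -0.56 without it (19), -0.56 with CCAAT (39) and -0.53 without it (7).

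The table gives log2 values from the regularized log transform (rlog), which draws weakly measured genes toward their mean and so understates their changes. Depth is unknown, since no counts were used. A change is the mean of the 3 DM values minus the mean of the 3 WT values. No 2 libraries were identical, and their medians over the tested genes ran from 8.03 to 8.105. Kit, by which the cells were selected, was present in every library and ran from 14.29 to 14.9. Of the other stem and progenitor genes listed, Cd34 ran from 12.02 to 12.64 and Ptprc, the pan-leukocyte marker CD45, from 13.63 to 14. Flt3 of the same list had a mean under 5. These values alone do not identify the cells after 8 days of culture. Mllt3, which the vector supplies while the endogenous copy is targeted for deletion, read 12.87, 12.6 and 12.44 in WT and 12.44, 12.03 and 11.99 in DM, with overlapping groups and a difference of -0.48 (SE 0.137, limma adjusted p 0.0448). That call was lost when WT replicate 1 (-0.36, adjusted p 0.152), WT replicate 2 (-0.5, 0.0606), DM replicate 2 (-0.42, 0.15) or DM replicate 3 (-0.4, 0.161) was left out. It was lost as well with no filter on the mean (adjusted p 0.0651) and with no mean-variance trend (0.0542), which makes 6 of 14 alternatives. The values do not separate vector from endogenous transcripts.

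Replication-dependent histone mRNAs were lower in DM across all 5 histone types. Of the 58 members, 48 fell at an adjusted p under 0.05 (limma over 18766 genes with a mean of at least 3, Benjamini-Hochberg adjustment), and 0 rose. At an unadjusted p under 0.05 there were 52, of which H2bc21 was higher in DM. Over all 18766 tested genes 5415 had an unadjusted p under 0.05. In the background of all tested genes 13.9% were called in either direction and 4.71% were called lower. The median change of the members was -0.52, which is 69.5% of the WT level, against 0.01 over all tested genes, and single members ran from -0.76 (H2bc14) to 0.19 (H2bc21). The fall was moderate in size: no member reached a change of -1. All 3 DM values lay below all 3 WT values in 51 members, against 14.3% of all tested genes, and the opposite held for H2bc21. Summed on the linear scale, the 58 members stood at 102.1, 106.9 and 90.96% of the WT mean in WT replicates 1 to 3 and at 74.14, 69.2 and 65.91% in DM replicates 1 to 3. WT replicate 3 was thus the lowest WT library but lay above each DM library.

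**Figure D1:**
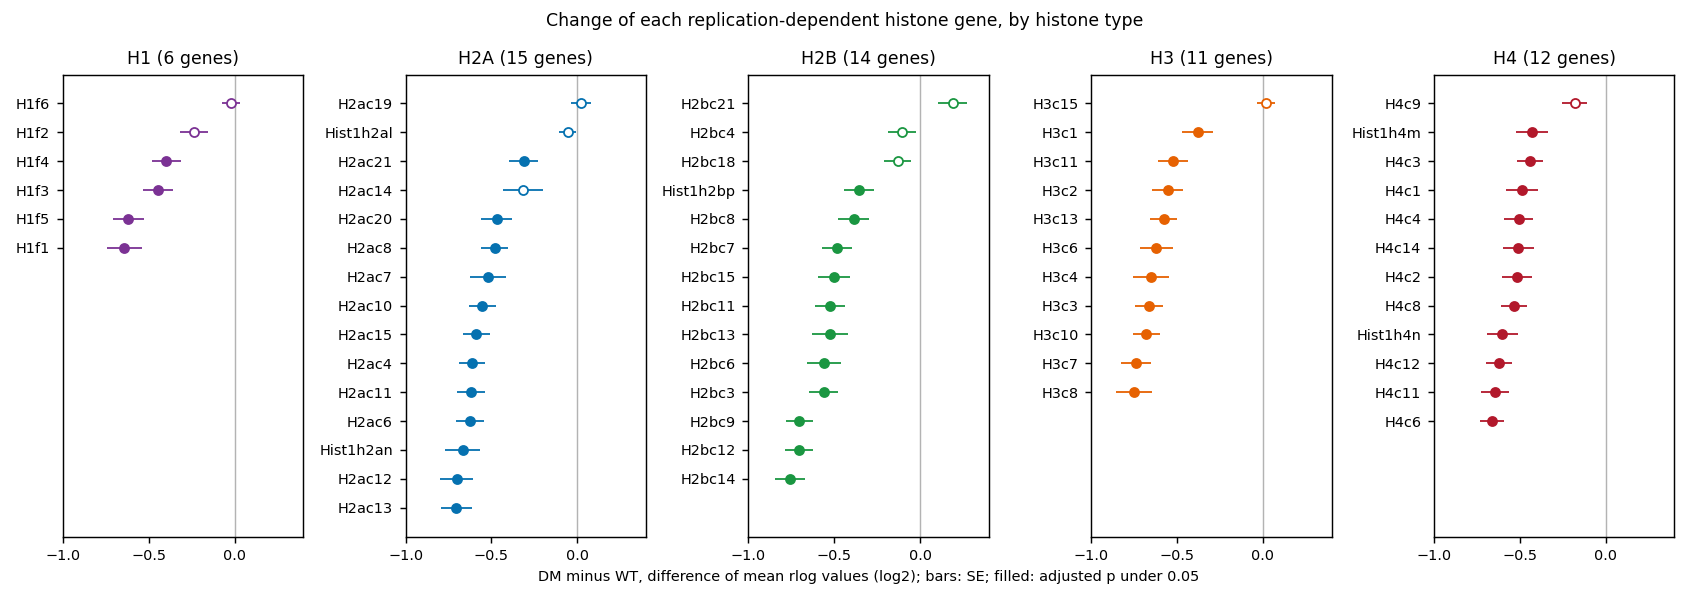
Change of each of the 58 members, DM minus WT, in log2 units with its SE (x axis), 1 panel per histone type; filled points have a limma adjusted p under 0.05. Filled points lie left of 0 in each panel, and H2bc21 at 0.19 is the rightmost point of all.

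The background count itself depended on single libraries. Of the 2611 called genes, 33.9% were lower in DM (48.7% after quantile normalization), and 1119 were called with DM replicate 2 left out, 1185 with WT replicate 1 left out and 1537 with DM replicate 3 left out. The members' count was 45, 42 and 42 in the same fits.

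**Figure D2:**
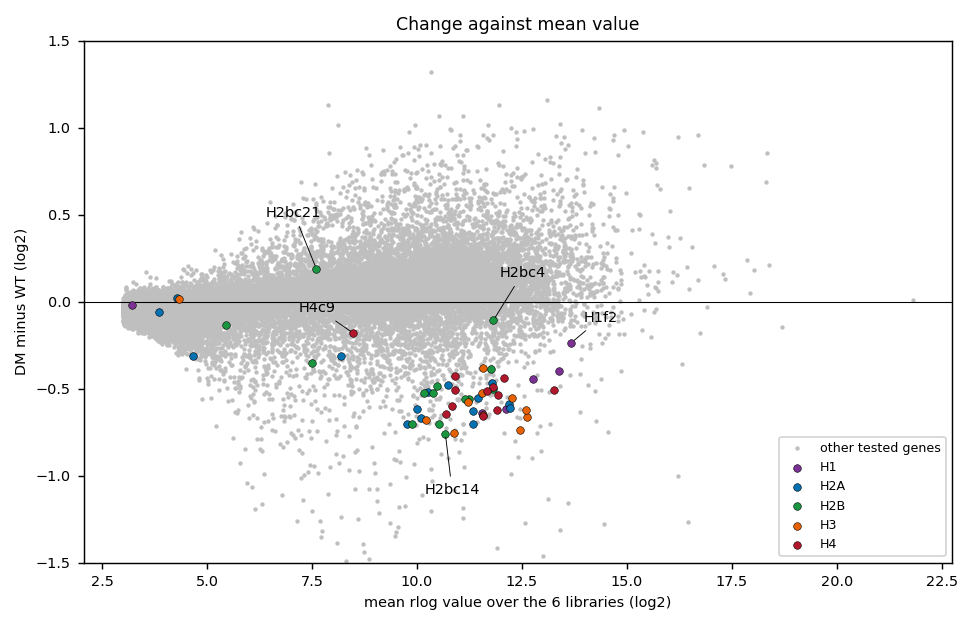
Change DM minus WT (y axis, log2) against the mean rlog value over the 6 libraries (x axis, log2) for all tested genes (grey) and the histone members (coloured by type); 21 other genes lie outside the y axis limits of -1.5 and 1.5. Members with a mean of at least 9 form a band below 0, from which H2bc4 and H1f2 stand nearest to 0.

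Where the mean rlog value was at least 9, 46 of 48 members fell, with a median change of -0.56. Over the 7801 tested genes in that range the median was 0.1, 425 were called lower and 1393 higher. Below 9, 2 of 10 members fell, H2ac21 and Hist1h2bp, and the median was -0.09. Over all tested genes, at any mean, 4.71% were called lower. The 10 members not called were H1f2, H1f6, H2ac14, H2ac19, Hist1h2al, H2bc4, H2bc18, H2bc21, H3c15 and H4c9, of which H1f2 and H2bc4 alone had means of at least 9. In bulk RNA, fewer cells in S phase and less histone mRNA per cell cannot be told apart.

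Linker histone H1 binds the DNA that enters and leaves the nucleosome. Of its 6 genes 4 fell, the median change was -0.42, and the summed H1 level in DM was 76 ± 5.51% (SD, n = 3) of the WT mean, with 100 ± 7.21% in WT. H1f1 (ENSMUSG00000049539.3; chromosome 13, 23763666 to 23764406, plus strand, 1 exon) read 11.98, 11.99 and 11.66 in WT against 11.37, 11.12 and 11.21 in DM. The groups did not overlap, and the change of -0.64 (SE 0.103, limma adjusted p 0.00563) was the largest of the type. H1f5 read 12.51, 12.49 and 12.3 in WT and 11.99, 11.72 and 11.74 in DM, a change of -0.62 (adjusted p 0.00429). H1f3 changed by -0.45 (adjusted p 0.0101). H1f4 changed by -0.4 (adjusted p 0.0149), but lost its call with WT replicate 1 (-0.39, adjusted p 0.0634), DM replicate 2 (-0.39, 0.0629) or DM replicate 3 (-0.35, 0.0675) left out.

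H1f2 (ENSMUSG00000036181.2; chromosome 13, 23738808 to 23740367, plus strand) was the H1 gene with the highest mean rlog value and had the smallest change among the 5 H1 genes with means of at least 9. It read 13.82, 13.87 and 13.7 in WT and 13.66, 13.54 and 13.48 in DM, which is a change of -0.24 (limma adjusted p 0.0909, SE 0.0829). Each DM library lay below each WT library, yet the change missed the threshold. It passed after quantile normalization (-0.42, adjusted p 0.00258) and after centring each library on its median (-0.27, 0.0336), 2 other scalings of the same values. H1f6, the linker histone of male germ cells, stayed between 3.13 and 3.3 in the 6 libraries, near the minimum.

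H2A and H2B pair as dimers on the outer faces of the nucleosome. Of 15 H2A genes 12 fell, with a median change of -0.55 and a summed DM level of 66.7 ± 3.32% (SD, n = 3) of the WT mean. H2ac13 (ENSMUSG00000071516.2; chromosome 13, 21716422 to 21716814, plus strand, 1 exon) read 11.79, 11.76 and 11.48 in WT and 11.06, 10.97 and 10.89 in DM, which is a change of -0.7 (limma adjusted p 0.00228, SE 0.0914). H2ac12 also changed by -0.7 (SE 0.0964, adjusted p 0.00298), with 10.24, 10.23 and 9.88 in WT and 9.43, 9.42 and 9.38 in DM. In both genes WT replicate 3 was the WT value closest to DM. Hist1h2an changed by -0.67 (adjusted p 0.0047) and H2ac6 by -0.63 (adjusted p 0.00248). Of the 2 H2A genes with the highest mean rlog values, H2ac4 changed by -0.61 (adjusted p 0.00205) and H2ac15 by -0.59 (adjusted p 0.00296). The 3 H2A genes that were not called had means under 5, and GENCODE M21 lists 2 of them, H2ac14 and Hist1h2al, as pseudogenes.

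Of 14 H2B genes 11 fell, with a median change of -0.51 and a summed DM level of 72.2 ± 4.72% (SD, n = 3). H2bc14 (ENSMUSG00000114279.1; chromosome 13, 21722044 to 21722567, plus strand, 1 exon), whose promoter stretch above holds an octamer and 3 CCAAT matches but no TATAA, had the largest change of the 58 members. It read 11.11, 11.13 and 10.92 in WT and 10.43, 10.22 and 10.24 in DM, which is a change of -0.76 (limma adjusted p 0.0011, SE 0.0851), or 59.1% of the WT level. H2bc12 and H2bc9 followed at -0.71 (adjusted p 0.00146) and -0.7 (adjusted p 0.00118), and H2bc3 changed by -0.56 (adjusted p 0.00423). H2bc15, with the second highest mean rlog value of the type, changed by -0.5 (adjusted p 0.00814). H2bc4, with the highest, did not pass the test.

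H3 and H4 form the tetramer at the centre of the nucleosome. H3 had the lowest median of the 5 types, -0.62, and 10 of its 11 genes fell, to a summed DM level of 65.1 ± 4.28% (SD, n = 3) of the WT mean. H3c8 (ENSMUSG00000099517.2; chromosome 13, 23535422 to 23535951, plus strand) read 11.31, 11.41 and 11.04 in WT and 10.63, 10.4 and 10.47 in DM, which is a change of -0.75 (limma adjusted p 0.00302, SE 0.104). H3c7 read 12.89, 12.91 and 12.68 in WT and 12.2, 12.03 and 12.02 in DM, a change of -0.74 (SE 0.0874, adjusted p 0.00145). H3c10 changed by -0.68 (adjusted p 0.0014), H3c3 by -0.66 (adjusted p 0.00166) and H3c6, which with H3c3 had the highest mean rlog values, by -0.62 (adjusted p 0.00447). H3c15, with a mean of 4.32, was the H3 member not called. No difference between the types was tested, and their single genes overlapped widely in size of change.

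Of 12 H4 genes 11 fell, with a median change of -0.51 and a summed DM level of 69.3 ± 3.3% (SD, n = 3). H4c6 (ENSMUSG00000069274.3; chromosome 13, 23551258 to 23551648, minus strand) read 11.88, 12.01 and 11.85 in WT and 11.27, 11.24 and 11.24 in DM, with the DM libraries close together. Its change of -0.66 (SE 0.0695) had the smallest adjusted p of the members (limma, 0.000751). H4c11 changed by -0.64 (adjusted p 0.00205), H4c12 by -0.62 (adjusted p 0.00166) and Hist1h4n by -0.6 (adjusted p 0.00423). H4c4, with the highest mean rlog value of the type, read 13.52, 13.64 and 13.4 in WT and 13.07, 13.05 and 12.91 in DM, a change of -0.51 (adjusted p 0.00667), and H4c3 changed by -0.44 (adjusted p 0.00689). H4c9, singled out after its values were seen, read 8.59, 8.58 and 8.56 in WT and 8.47, 8.3 and 8.41 in DM, a change of -0.18 (adjusted p 0.121). Its stem-loop, shown above, has the loop tttt, but so do those of 2 members that were called lower. These are H4c14, with the same sequence (-0.51, adjusted p 0.00768), and H2ac20 (-0.47, 0.00964). H4f16, an H4 gene whose name falls outside the pattern and which was named after its values were seen, fell by 0.75 on the log2 scale (SE 0.0753, adjusted p 0.000581). The other 3 histone genes with names outside the pattern were not called, with changes of -0.04 in H2bu2 (adjusted p 0.629), 0.1 in H2aw (0.398) and 0.07 in H2aj (0.497).

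**Figure D3:**
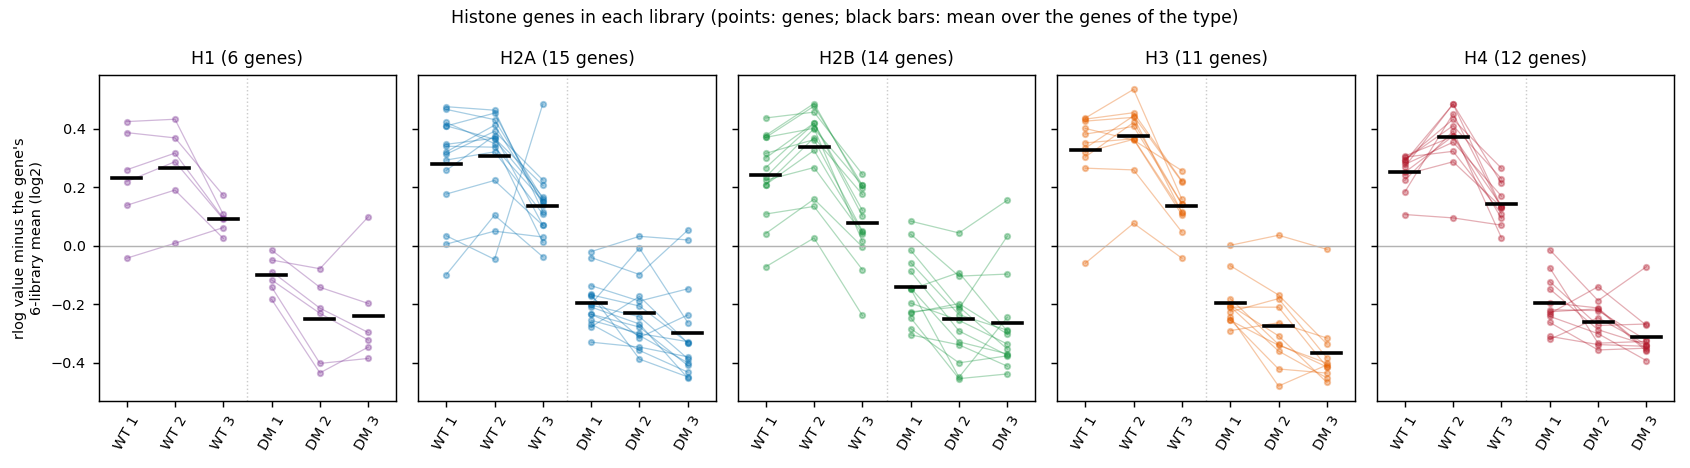
The rlog value of each member minus its mean over the 6 libraries (y axis, log2) in WT and DM replicates 1 to 3 (x axis), 1 panel per histone type; thin lines join a gene's values and black bars are the mean over the genes of the type. The bars of WT replicate 3 lie between 0.08 and 0.14, below the other WT libraries and above each DM library, whose bars lie between -0.37 and -0.1.

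Many H2A and H2B genes lie head to head and close together, with a shared promoter region between them. The members formed 11 such pairs with starts within 1000 bases on opposite strands, 10 of them of H2A with H2B, and both genes were called lower in 8 pairs. In 7 pairs the changes of both genes differed by less than 0.2, as in H2ac12 and H2bc12 with -0.7 and -0.71. The other 4 pairs differed by 0.31 to 0.66. In each of the 4, the gene with the smaller change was not called, except in the pair of Hist1h2an (-0.67) and Hist1h2bp (-0.35, adjusted p 0.0236), where both were. Hist1h2bp lost its call without WT replicate 1 (-0.33, adjusted p 0.0892), WT replicate 2 (-0.31, 0.0561) or DM replicate 3 (-0.3, 0.0863). In the pair of H2ac14 (-0.31) and H2bc14 (-0.76), H2ac14 had a mean of 4.67, where the transform shrinks changes.

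**Figure D4:**
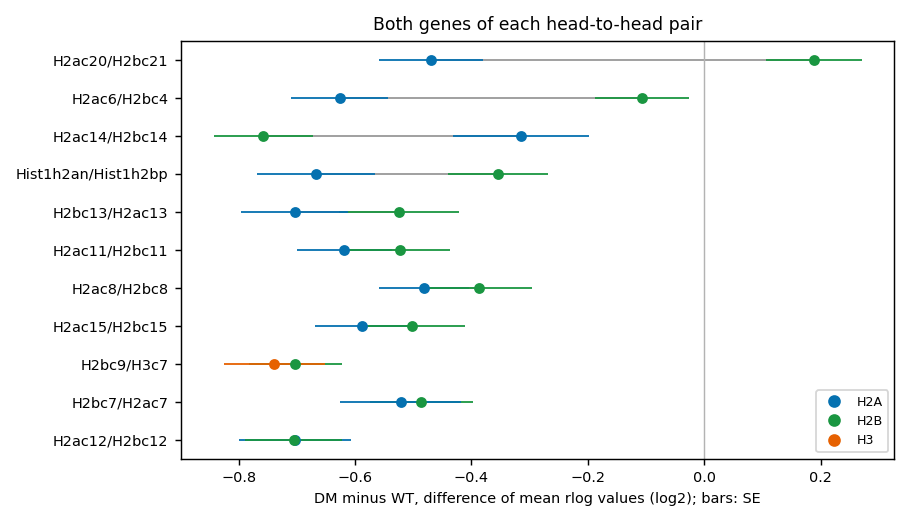
Change DM minus WT with its SE (x axis, log2) of both genes of each of 11 head-to-head pairs (y axis), ordered by the difference within the pair and coloured by histone type. The pairs of H2bc21 and H2bc4 show the widest gaps, with the H2B gene to the right of its H2A partner.

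H2bc4 (ENSMUSG00000018102.5; chromosome 13, 23684199 to 23692908, plus strand, 2 exons) starts 250 bases from H2ac6 (ENSMUSG00000069270.6; chromosome 13, 23681467 to 23683948, minus strand). H2ac6 read 11.74, 11.7 and 11.5 in WT and 11.1, 11.03 and 10.93 in DM. H2bc4 read 11.93, 11.95 and 11.74 in WT and 11.86, 11.72 and 11.72 in DM, with overlapping groups and a change of -0.11 (SE 0.0809, limma adjusted p 0.4). H2ac6 therefore fell while its partner, across the same promoter region, differed by less than the spread between WT libraries. H2bc4 minus H2ac6 was 0.19, 0.26 and 0.24 in WT and 0.76, 0.69 and 0.79 in DM, a difference of 0.52 between the groups (two-sided exact permutation p 0.1, which 3 libraries a group cannot go below, and 0.275 adjusted over the 11 pairs). After quantile normalization H2bc4 was called lower (-0.21, adjusted p 0.0423).

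H2bc21 (ENSMUSG00000068854.7; chromosome 3, 96221119 to 96223738, plus strand), singled out after its values were seen, starts 238 bases from H2ac20 (ENSMUSG00000068855.3; chromosome 3, 96220361 to 96220880, minus strand). H2ac20 read 12.04, 12.16 and 11.86 in WT and 11.62, 11.58 and 11.46 in DM, which is a change of -0.47 (limma adjusted p 0.00964, SE 0.0893). H2bc21 read 7.53, 7.63 and 7.37 in WT and 7.69, 7.65 and 7.76 in DM, a change of 0.19 (SE 0.0825, adjusted p 0.164). H2ac20 fell with no overlap between the groups, while each DM value of H2bc21 lay above each WT value. H2bc21 minus H2ac20 went from -4.51, -4.53 and -4.49 in WT to -3.93, -3.94 and -3.7 in DM, a difference of 0.66 (two-sided exact permutation p 0.1, 0.275 adjusted over the pairs).

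H2bc4 and H2bc21 also shared features of their mRNA models. Both had 3′ UTR models longer than the short ends usual for the class, 742 and 2192 bases, in which the poly(A) signal (AATAAA) was found. Neither model held a stem-loop in the 100 bases after the stop codon. The search read annotated transcripts alone. The only H2bc4 model is spliced from 2 exons, so bases that splicing removes were not read, and an unspliced form with a stem-loop could be missed. The other 3 members with a 3′ UTR model of at least 40 bases and no match were H1f1, H3c8 and H4c1, all called lower. The H1f1 model ends 48 bases after the stop codon, while stem-loops of other members began at up to 58 bases, so one could be missed there. Of these 3 members H4c1 held the poly(A) signal. That signal occurred in 13 members in all. Their median change was -0.48, with 9 called lower, against -0.55 in the 45 members without it, of which 39 were called lower. The 4 members with the signal that were not called were H1f2, H1f6, H2bc4 and H2bc21. In 10 members, with 3′ UTR models of 150 to 4931 bases, the model held both the signal and a stem-loop, and 8 of these fell while H1f2 and H1f6 were not called. Whether the form of the mRNA has a part in the differences was not tested, and the files do not separate mRNA forms of a gene.

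The members lie in 3 clusters and 1 single site. The larger block on chromosome 13, from 23531050 to 23764406, held 29 members, of which 26 fell, with a median change of -0.53. The smaller block on the same chromosome, from 21715763 to 22043676, held 20 members, of which 18 fell, with a median of -0.61. The cluster on chromosome 3, from 96219865 to 96270132, held 8 members, of which 4 fell (H2ac20, H2ac21, H3c13 and H4c14), with a median of -0.22. The 4 members there that were not called, H2ac19, H2bc18, H2bc21 and H3c15, had means of 4.29, 5.44, 7.6 and 4.32. Of the 50-base words of their transcripts 0, 46.39, 100 and 36.46%, in that order, were found in no other annotated gene. H3c13 read 11.52, 11.64 and 11.36 in WT and 10.93, 10.95 and 10.9 in DM, a change of -0.58 (limma adjusted p 0.00306). Hist1h2al lies apart on chromosome 13 at 51202727 to 51203065.

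Histone genes of a type are near copies of each other, so reads can be shared among them or dropped, and single members are uncertain to that degree. In 28 of the 58 members fewer than 50% of the 50-base words of the transcript were found in no other annotated gene. Among members with a mean of at least 9, those with fewer than 50% had a median change of -0.59, with 23 of 23 called lower. Those with at least 50% had a median of -0.53, with 23 of 25 called lower. Of the 4 members with 100% unique words, H1f1 and H1f5 fell, while H1f6 and H2bc21, with means of 3.21 and 7.6, were not called (changes of -0.02 and 0.19). An annotated gene on the opposite strand overlapped 18 members, and whether counting used strand is not given in the sources used here. On the same strand, H1f4 and H2bc6 overlapped each other, and H2ac6 and H2bc18 overlapped other annotated genes. Strand cannot separate reads in those stretches.

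Few genes that make and trim histone mRNAs passed the test. Of 21 genes of histone transcription and 3′ end processing, 1 fell and 0 rose, with a median change of -0.04, while 5 had an unadjusted p under 0.05. Cdk2, whose kinase with cyclin E drives NPAT, read 10.7, 10.65 and 10.52 in WT and 10.28, 10.34 and 10.41 in DM, which is a change of -0.28 (limma adjusted p 0.0295, SE 0.0725). Its call was lost in 5 of 14 alternatives, among them without WT replicate 1 (-0.24, adjusted p 0.129), DM replicate 1 (-0.25, 0.103), DM replicate 2 (-0.28, 0.0987) and DM replicate 3 (-0.32, 0.0589). Npat, the activator of histone gene transcription, read 10.3, 10.38 and 10.15 in WT and 10.35, 10.27 and 10.21 in DM, groups that overlap fully. Slbp, the stem-loop binding protein, read 10.81, 10.82 and 10.68 in WT and 10.59, 10.56 and 10.47 in DM, a change of -0.23 (SE 0.07, adjusted p 0.0547) that passed the threshold in 8 of 14 alternatives, with adjusted p values from 0.0041 to 0.192. Npat and Slbp were named after their values were seen. Of 8 genes of histone mRNA decay 0 were called, 0 had an unadjusted p under 0.05, and the median was 0.02. Among all 18766 tested genes 13.9% were called, and 5415 had an unadjusted p under 0.05.

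Replacement histones did not move as one group. Of 11 genes, 3 fell and 0 rose, with a median change of -0.16, where 4.71% of all tested genes were called lower. H2ax, the H2A variant phosphorylated at DNA breaks, whose mRNA is known in a stem-loop form and a polyadenylated form, read 12.76, 12.79 and 12.59 in WT against 12.14, 12.11 and 11.88 in DM. The change of -0.67 (SE 0.0915, limma adjusted p 0.00302) was as large as those of the clustered H2A genes. Cenpa, the H3 variant of centromeres, changed by -0.36 (adjusted p 0.0103; -0.32 and 0.0527 without DM replicate 2). H2az2, an H2A.Z gene, changed by -0.26 (adjusted p 0.0298), with adjusted p values above the threshold without WT replicate 1 (-0.22, 0.137), DM replicate 1 (-0.28, 0.0614), DM replicate 2 (-0.25, 0.117) or DM replicate 3 (-0.26, 0.0956). Both genes of H3.3, the replacement form of H3, were named after their values were seen. H3f3a read 12.38, 12.48 and 12.41 in WT and 12.55, 12.69 and 12.57 in DM, a change of 0.18 (adjusted p 0.124) with each DM value above each WT value. H3f3b changed by 0.11 (adjusted p 0.387), and by -0.06 after quantile normalization.

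Of 22 histone chaperones and import factors, which carry new histones to DNA, 4 fell and 1 rose, with a median change of -0.1. Over all 18766 tested genes 884 were called lower and 1727 higher. Hjurp, the chaperone of CENP-A, read 12.3, 12.38 and 12.21 in WT and 11.73, 11.64 and 11.8 in DM, which is a change of -0.57 (limma adjusted p 0.00251, SE 0.076). Chaf1a, a subunit of the chromatin assembly factor CAF-1, changed by -0.31 (adjusted p 0.0191). The paralogs Asf1a and Asf1b, which hand H3 and H4 on to assembly factors, changed by -0.31 (adjusted p 0.0141) and -0.29 (adjusted p 0.0296). Ipo4, an importin for H3 and H4, rose by 0.25 (adjusted p 0.0423). Except for Hjurp, each of these calls was lost without WT replicate 1, at -0.29 for Chaf1a (adjusted p 0.0878), -0.3 for Asf1a (0.0612), -0.26 for Asf1b (0.12) and 0.28 for Ipo4 (0.0798). They were lost as well without DM replicate 2, at -0.33 (adjusted p 0.056), -0.31 (0.0528), -0.29 (0.101) and 0.24 (0.131) in the same order. Without DM replicate 3, Chaf1a (-0.27, adjusted p 0.0845), Asf1b (-0.25, 0.12) and Ipo4 (0.27, 0.0893) also missed the threshold.

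Genes of DNA synthesis and of mitosis were lower in DM along with the histone genes, and their part in the result was not tested. Of 36 genes of DNA synthesis in S phase 18 fell and 0 rose, with a median change of -0.28. Leaving out WT replicate 1 gave 7 lower calls, leaving out DM replicate 2 gave 9, and leaving out DM replicate 3 gave 7. The largest changes were in Dut (-0.7, limma adjusted p 0.00376), Cdc6 (-0.6, 0.00112), Cdc45 (-0.57, 0.00228) and Rrm2 (-0.55, 0.00364), which supply nucleotides or start replication. All 20 mitotic genes fell, with a median of -0.42, led by Cdc20 (-0.66, adjusted p 0.00166), Plk1 (-0.61, 0.00159), Aurka (-0.6, 0.004) and Kif11 (-0.55, 0.00403). Of these 20, 15 were called lower without WT replicate 1, DM replicate 2 or DM replicate 3. Over all tested genes in the main fit, 4.71% were called lower. Relative to each gene's mean over the 6 libraries, the mean of the 58 histone members was 0.27, 0.34 and 0.12 in WT and -0.17, -0.25 and -0.3 in DM. The mitotic genes stood at 0.29, 0.28 and 0.12 in WT and -0.13, -0.26 and -0.3 in DM, close to the histone genes library by library. Genes of DNA synthesis stood at 0.23, 0.16 and 0.04 in WT and -0.07, -0.14 and -0.22 in DM. Histone level minus DNA synthesis level was 0.04, 0.18 and 0.08 in WT and -0.1, -0.11 and -0.08 in DM, which do not overlap, while histone level minus mitosis level overlapped between the groups (-0.02, 0.05 and 0 in WT, -0.04, 0.01 and 0 in DM). These levels are a description, since the members of each list were chosen with results known.

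**Figure D5:**
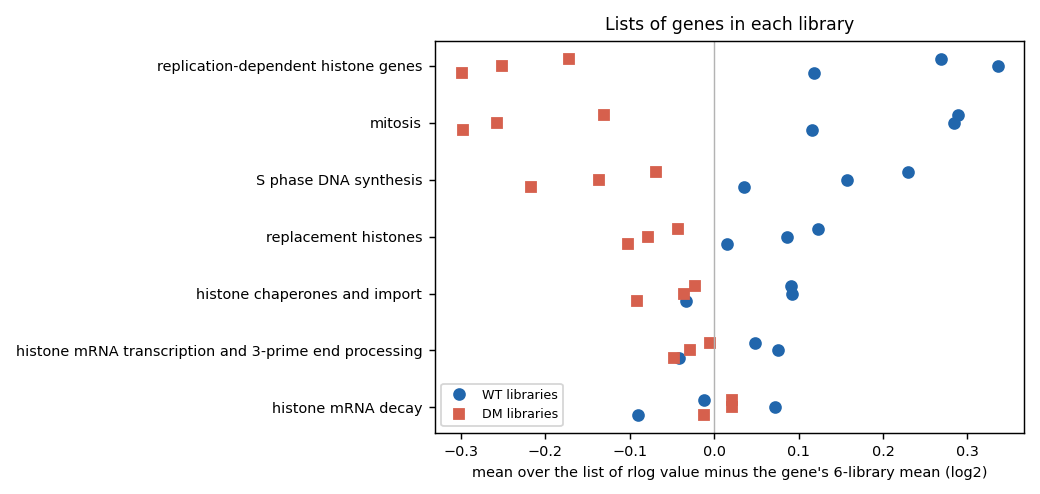
Mean over each list of the rlog value minus the gene's mean over the 6 libraries (x axis, log2), for the histone members and 6 other lists (y axis); each point is 1 library, circles for WT and squares for DM. Histone, mitosis, DNA synthesis and replacement histone lists show no overlap between WT and DM libraries, while the lists of chaperones, processing and decay overlap.

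Neutrophil, monocyte and macrophage markers also differed between the groups, and their part in the histone result was not tested. Over all 18766 tested genes 884 were called lower and 1727 higher. Of the 7801 with a mean of at least 9, 425 were called lower and 1393 higher. Of 15 neutrophil genes, 13 fell and 0 rose, with a median change of -1.62, led by Mpo (-4.23, limma adjusted p 0.000444) and Elane (-3.96, 0.000118). Their summed linear level ran from 113.9 to 154.1% of the mean over all libraries in WT and from 45.52 to 80.58% in DM. Of 15 monocyte and macrophage genes, 12 rose and 2 fell, with a median of 0.64 and a summed level of 58.38 to 92.99% in WT and 113.9 to 146.3% in DM. Among these, Msr1 changed by 1 (adjusted p 0.00664) and Cd68 by 0.94 (adjusted p 0.00777), while Ly6c2 changed by -1.14 (adjusted p 0.00361). Of 11 stem and progenitor genes 2 rose, Procr and Mecom, and 2 fell, Myb and Flt3 (median -0.02, summed level 92.49 to 104.5% in WT and 90.86 to 116.7% in DM). The call of Flt3 was lost in 9 of the 13 alternatives run on it. Of 10 erythroid genes none was called, 0 at an unadjusted p under 0.05 (summed level 100.1 to 108.5% in WT and 85.96 to 105.5% in DM). Mast cell and basophil genes had 3 of 12 called higher and 1 lower (85.87 to 110.4% in WT, 94.66 to 125% in DM), megakaryocyte genes 2 of 9 higher and 0 lower (77.81 to 93.27%, 94.52 to 122.9%), and lymphoid genes 1 of 6 higher and 1 lower (59.9 to 94.86%, 119 to 135.5%). Il7r, the lymphoid gene called higher (0.79), was the only 1 of the 6 with a mean of at least 5. Changes were below 0 in 5 of the 6 (median -0.1), so the higher summed level in DM does not hold for the lymphoid list as a whole. With a library left out, the number called lower ran from 0 to 3 in the stem and progenitor list (0 if it was DM replicate 2 or 3), from 0 to 3 in the mast cell and basophil list (0 if it was WT replicate 2 or 3, or DM replicate 2 or 3) and from 0 to 2 in the lymphoid list (0 if it was DM replicate 1 or 2). The number called higher was 1 in the stem and progenitor list and 1 in the megakaryocyte list when DM replicate 2 was left out. In the mast cell and basophil list 2 were called higher with any library but DM replicate 3 left out. The neutrophil list had 11 to 13 called lower with a library left out, and 1 called higher without WT replicate 2 or DM replicate 1. In the monocyte and macrophage list 9 to 12 were then called higher. Of the 10 lymphoid genes listed, 4 lay under the minimum mean of 3, among them the markers Cd3e, Cd3g and Rag2. The summed levels of the lists include such genes, while the counts of calls do not. Of 7 other RNAs without a poly(A) tail 0 were called and 0 had an unadjusted p under 0.05, with a median of -0.06. The noncoding RNA 7SK (Rn7sk), named after its values were seen, read 17, 17.05 and 16.87 in WT and 17.06, 17.11 and 17.36 in DM.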

How the data were processed

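Total RNA of 3 WT and 3 DM libraries was sequenced. The authors deposited 1 table of rlog values, which are log2 values normalized for library size, and the submitters' processing notes name cutadapt 2.6, STAR 2.7.3, DESeq2 1.30.0 and the build mm10, without roles. The counting tool, its annotation and its use of strand are not given in the sources used here. The 142699 lines were merged to 55487 genes, each repeated with identical values. From these values limma 3.58.1 (lmFit, eBayes with a mean-variance trend, two-sided, R 4.3.3) compared DM with WT over 18766 genes with a mean of at least 3, with Benjamini-Hochberg adjustment and a threshold of 0.05. The script was tested on simulated data. Depth is unknown, since the deposited log2 values hold no counts, so no count test or counting interval was computed. Coordinates and models come from GENCODE M21 on GRCm38, and 58 of 58 members matched by versioned identifier. Promoters come from RefSeq.

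The members and gene lists were chosen with earlier results of these data known. Genes named are, per histone type, up to 4 called members in each direction with the largest changes and the 2 with the highest means, up to 4 called genes in each direction of each other list, and Mllt3; other genes, among them members named for their place, their pair or a missing call, were chosen after their values were seen. The 14 alternatives were no filter, a mean of at least 5, no trend, quantile normalization, centring on library medians, protein-coding genes only, a GC and transcript length correction, a replicate block, and each library left out in turn. Figures were drawn with matplotlib 3.10.9.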

Additional observations from a re-analysis of the deposited data

How the results depend on the processing

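Of the 48 members called lower, 42 kept the call in each of the 14 alternatives, and H1f4, H2ac21, H2bc8, Hist1h2bp, H3c1 and Hist1h4m lost it in at least 1. No called member changed sign, and 0 members were called higher in any alternative. The number called was 42 to 48 with a library left out and 47 to 50 otherwise. Over all genes, 1119 (DM replicate 2) to 3475 (WT replicate 2) were called with a library left out, with 1185 for WT replicate 1 and 1537 for DM replicate 3. In the other alternatives 1799 (no filter) to 3742 (replicate block) were called. The members' median was -0.638 after quantile normalization, against -0.52, and the cause was not tested. Among the other lists, genes of DNA synthesis called lower numbered 10 with no filter and 24 after quantile normalization, against 18. After quantile normalization 10 chaperones and import factors, 5 genes of histone transcription and processing and 5 replacement histones were called lower, against 4, 1 and 3, and with no filter 2, 0 and 2 were.

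Some uncalled changes near 0 changed sign. After quantile normalization H1f6 stood at 0.0383, Hist1h2al at 0.0109, H3f3b at -0.0621 and Npat at -0.0791. After centring on library medians H2ac19 stood at -0.0111, H3c15 at -0.0157 and Npat at -0.0325. With the GC and length correction, which covered 96.91% of tested genes and all 58 members, H1f6 stood at 0.00729, Hist1h2al at 0.0449 and Npat at -0.0348. With a library left out, the ranges that crossed 0 were -0.073 to 0.0156 for H1f6, -0.0227 to 0.0791 for H2ac19, -0.0087 to 0.0595 for H3c15 and -0.0614 to 0.0508 for Npat.

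Replicate numbers are shared by the groups, and the labels do not say whether a number pairs libraries. Deviations of same-numbered libraries from their group means correlated at 0.491, 0.116 and 0.0412. Those of libraries with different numbers correlated at -0.336 to 0.124. With 3 libraries a group, these values cannot settle whether the numbers pair libraries. With a replicate block, 49 members were called, 48 of them shared with the fit without it and H1f2 added (adjusted p 0.0206), the median was again -0.52, and 3742 genes were called in all. The shrinkage of weak genes and the unknown depth limit what can be read for the 10 members with means under 9.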
